A study of Mus musculus with 4 samples.

Results

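The genes described here are those of the D cyclins (Ccnd1, Ccnd2 and Ccnd3), of the kinases that the D cyclins bind and activate (Cdk4 and Cdk6), and of 5 inhibitors of cyclin-dependent kinases (Cdkn1a, Cdkn1b, Cdkn1c, Cdkn2a and Cdkn2c). These 10 genes were taken by name from the 19751 genes that the array names, and their probes were found through RefSeq accessions. RNA came from mouse alveolar macrophages, the resident phagocytes of the lung airspaces. The Bach2KO sample came from mice lacking Bach2, a transcription repressor that binds Maf recognition elements, pooled from 3 animals by the design text or 4 by the treatment protocol, and the WT sample was pooled from 8 wild-type animals. The cells were sorted by flow cytometry, but the sources used here state no gate, strain, age, sex or further treatment. Each genotype gave 1 RNA sample, which was split in 2 before amplification and Cy3 labelling. The 2 Bach2KO arrays and the 2 WT arrays are therefore technical repeats, and no p-value can stand for the genotypes. Each SD below covers amplification, labelling and hybridisation only.

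In the G1 phase of the cell cycle, D cyclins assemble with Cdk4 or Cdk6 and phosphorylate the retinoblastoma protein, which releases E2F factors to switch on genes of DNA replication. Inhibitors of the INK4 family (among them the products of Cdkn2a and Cdkn2c) bind Cdk4 and Cdk6 directly and keep D cyclins away, whereas those of the Cip/Kip family (p21, p27 and p57, from Cdkn1a, Cdkn1b and Cdkn1c) bind cyclin-kinase complexes and act chiefly on those of Cdk2. Alveolar macrophages are known to maintain their number by local division at a low rate, and D cyclins in macrophages are known to be induced by colony-stimulating factors.

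The probe for Bach2 gave no check of the labels, as it was well above background on 1 array of each genotype, with log2 signals of -5.03 and -8.00 on the Bach2KO arrays and -6.23 and -6.18 on the WT arrays. All 4 arrays lay on 1 slide, the Bach2KO arrays side by side and the WT arrays side by side, so a position effect cannot be told apart from the genotype.

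Signals are given as log2 of the processed intensity relative to the 75th percentile of all probes on the same array, so 0 marks that percentile and a difference of 1 is 2-fold. A gene was called higher in Bach2KO where both Bach2KO arrays exceeded both WT arrays by 2-fold or more, so that all 4 array pairs agree, and lower by the mirrored condition. All 10 genes were well above background on all 4 arrays by the probe that stood for them, so the filter on dim signals removed none. By this rule 3 of the 10 were higher in Bach2KO (Ccnd1, Cdkn1c and Cdkn2a), against 8.74% of the 15122 genes measured, and 2 were lower (Ccnd2 and Cdkn1b), against 5.55%. The other 5 met neither condition, and as the genes were named with results of these arrays known, nothing is read from the share called. In these bulk samples, fewer cells with a transcript and less of it per cell cannot be told apart. The median difference of the 10 was 0.42, and that of all measured genes was 0.10, but the 10 ran from -1.42 to 2.99 and each functional class held genes that differed unlike one another.

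**Figure D1:**
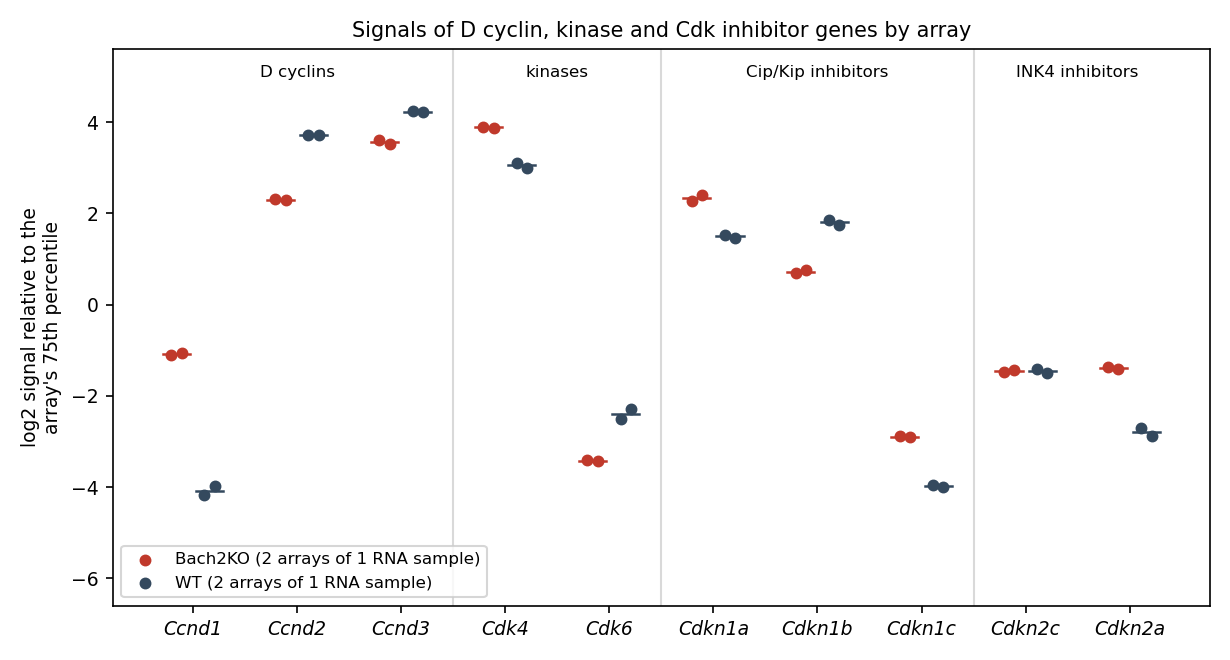
Log2 signal relative to the array's 75th percentile (vertical axis) of 10 G1 genes (horizontal axis) on the 2 Bach2KO arrays and the 2 WT arrays; each point is 1 array and each bar the mean of 2, and heights of different genes are not comparable because each has its own probe. The arrays of the 2 genotypes do not overlap for any gene but Cdkn2c. The share of the 15122 measured genes without overlap was not counted, so nothing is read from this lack of overlap. Ccnd1 is farthest apart, at -1.08 in Bach2KO and -4.07 in WT.

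The D cyclin genes differed most from one another. Ccnd1 was 7.97-fold higher in Bach2KO. Ccnd2 was 2.67-fold lower. Ccnd3 had a 1.60-fold lower signal that met neither condition.

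Ccnd1 encodes cyclin D1, the D cyclin most often linked to growth factor signals in adherent cells. Its probe for NM_007631 had log2 signals of -1.11 and -1.05 on the Bach2KO arrays, against -4.17 and -3.98 on the WT arrays. Before scaling, the same spots read 438 and 432 intensity units on the Bach2KO arrays, and 66.0 and 90.1 units on the WT arrays. Both Bach2KO arrays thus lay far above both WT arrays, and the gene was dim but detected in WT. The difference was 2.99 (mean -1.08 ± 0.04 in Bach2KO and -4.07 ± 0.14 in WT, SD, n = 2 arrays each), with array pairs from 2.87 to 3.12. Arrays of the same RNA differed by 0.06 in Bach2KO and 0.20 in WT. Of the measured genes, 365 had a larger difference than Ccnd1.

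Ccnd2 encodes cyclin D2, which is prominent in blood cells. Its log2 signals were 2.31 and 2.30 on the Bach2KO arrays, against 3.71 and 3.72 on the WT arrays. The unscaled intensities were 4688 and 4396 units in Bach2KO, and 15615 and 18706 units in WT, with no spot saturated on any array. Each genotype's arrays nearly coincided, and the 2 genotypes did not overlap. The difference was -1.42, with pairs from -1.43 to -1.41, and 588 measured genes had a lower one.

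Ccnd3, for cyclin D3, was measured by 2 probes. The brighter one, for NM_001081636, had log2 signals of 3.60 and 3.51 on the Bach2KO arrays and 4.25 and 4.22 on the WT arrays, a difference of -0.68. The other, for NM_007632, had 2.69 and 2.68 in Bach2KO and 2.94 and 2.97 in WT, a difference of -0.27. Both probes were lower on each Bach2KO array than on each WT array, by unequal amounts, and neither reached 2-fold.

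Because a constant error in the scaling of an array cancels in a ratio of genes, the cyclins were also set against each other within arrays. The ratio of the Ccnd1 signal to the Ccnd2 signal was 21.3-fold higher in Bach2KO than in WT, a log2 difference of 4.41 with pairs from 4.28 to 4.54. The ratio of Ccnd1 to Ccnd3 was 12.8-fold higher, and that of Ccnd2 to Ccnd3 1.67-fold lower. These are unequal changes and do not show which transcript was the more abundant, since each probe has its own brightness. Quantile normalization and background correction can move genes unequally, so this and the later within-array ratios still depend on processing. With the normexp background correction and the 75th percentile, Ccnd1 was at 2.17 and Ccnd2 at -1.40, a smaller gap.

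The 2 kinase genes differed in opposite directions, and neither was called. Cdk4 had a signal 1.78-fold higher and Cdk6 one 2.03-fold lower in Bach2KO. Cdk4 and Cdk6 encode closely related catalytic subunits that the D cyclins share.

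Cdk4 was measured by 3 probes, all for NM_009870. The brightest had log2 signals of 3.90 and 3.88 on the Bach2KO arrays, against 3.11 and 3.00 on the WT arrays. Its difference was 0.83, and those of the other probes were 0.69 and 0.63. All 3 were higher on both Bach2KO arrays than on either WT array, by amounts short of 2-fold. Before scaling, the brightest probe read 14108 and 13150 units in Bach2KO and 10282 and 11368 units in WT.

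Cdk6 had log2 signals of -3.41 and -3.43 on the Bach2KO arrays, against -2.51 and -2.28 on the WT arrays. The groups did not overlap. The difference of -1.02 passed 2-fold in the array means, but the pairs ran from -1.15 to -0.90 and Cdk6 was not called. The WT arrays differed by 0.23 from each other, the widest gap between repeats among the probes that stood for the 10 genes, and without WT replicate 1 the difference was -1.14 and the gene was called lower. Within arrays, the ratio of Cdk4 to Cdk6 was 3.61-fold higher in Bach2KO (log2 difference 1.85, pairs from 1.68 to 2.02).

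The promoters of the 2 kinase genes are shown because they hold matches to the E-box CACGTG, the sequence bound by Myc and its partner Max. Both are RefSeq sequences of GRCm38.p6, from 250 bases before to 50 bases after the annotated start, 5′ to 3′ on the strand of the gene, with E-boxes in capitals.
Cdk4, chr10:127063285-127063584, plus strand: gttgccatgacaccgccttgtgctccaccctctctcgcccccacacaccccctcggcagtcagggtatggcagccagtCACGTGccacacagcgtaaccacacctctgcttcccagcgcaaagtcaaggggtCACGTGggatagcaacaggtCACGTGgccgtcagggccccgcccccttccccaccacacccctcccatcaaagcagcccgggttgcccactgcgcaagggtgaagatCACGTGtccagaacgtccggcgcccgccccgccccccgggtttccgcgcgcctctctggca
Cdk6, chr5:3343643-3343942, plus strand: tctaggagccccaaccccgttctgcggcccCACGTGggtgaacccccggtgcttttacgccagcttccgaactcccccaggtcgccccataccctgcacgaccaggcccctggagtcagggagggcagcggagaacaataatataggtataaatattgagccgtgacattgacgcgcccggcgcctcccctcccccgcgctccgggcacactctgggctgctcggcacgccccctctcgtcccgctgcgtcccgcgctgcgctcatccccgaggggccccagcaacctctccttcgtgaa
The Cdk4 window held 4 E-boxes, beginning at positions -172, -118, -98 and -11 relative to the start, and the Cdk6 window 1, at -220. Of 32851 mouse promoter windows of the same length, 7.15% held at least 1 E-box and 8 held at least 4. The table held 11 windows for 7 of the 10 genes, and Ccnd1, Ccnd2 and Cdkn1c were not in it. A further E-box lay at position 35 after the second start of Cdkn2c, so 3 of the 11 windows held one. TGAGTCA or its reverse complement TGACTCA, the core of the Maf recognition element that Bach2 binds and of the AP-1 site, was in 0 of the 11, against 5.20% of all windows. The E2F sites TTTCGCGC and TTTGGCGC, searched on both strands, were in 0 of the 11, against 0.813% of all windows. Other forms of the E2F site were not searched, so the windows may still hold one. No motif overlapped another in these windows, a match in a window is no measure of binding, and a window without one says nothing of sites elsewhere. The level of Myc, a gene added to the text after its values were seen, was -0.41 ± 0.01 in Bach2KO and 0.31 ± 0.08 in WT (SD, n = 2 arrays each), a difference of -0.72 that met neither condition.

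**Figure D2:**
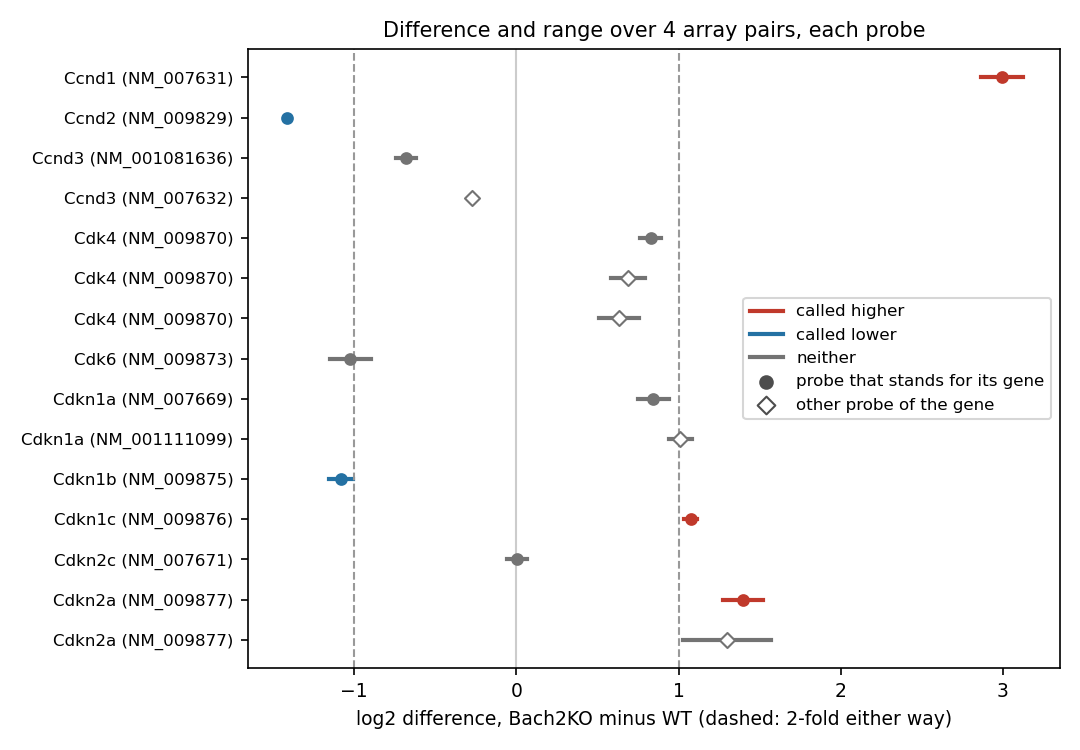
Log2 difference, Bach2KO minus WT (horizontal axis), of all 15 probes of the 10 genes (vertical axis); points are differences of array means, bars run from the lowest to the highest of the 4 array pairs, and dashed lines mark 2-fold. Ccnd1 at 2.99 and Ccnd2 at -1.42 lie clear of the dashed lines, whereas the bars of Cdk6 and of the second Cdkn1a probe cross one.

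The Cip/Kip inhibitor genes split. Cdkn1c was 2.11-fold higher in Bach2KO and Cdkn1b 2.11-fold lower. Cdkn1a had a signal 1.80-fold higher by its brighter probe and met neither condition.

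Cdkn1a encodes p21, the inhibitor that p53 induces after DNA damage. Its probe for NM_007669, printed in 10 spots on each array, had log2 signals of 2.27 and 2.41 on the Bach2KO arrays, against 1.53 and 1.46 on the WT arrays. The difference was 0.84, with pairs from 0.75 to 0.94. A second probe, for NM_001111099, had -2.19 and -2.09 in Bach2KO and -3.13 and -3.17 in WT, a difference of 1.01 with pairs from 0.94 to 1.08. Both probes were higher on each Bach2KO array than on each WT array. Neither met the rule, although the second passed 2-fold in the array means.

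Cdkn1b encodes p27, which is high in resting cells and is degraded as they enter the cycle, so its transcript is only part of its control. Its log2 signals were 0.70 and 0.75 on the Bach2KO arrays, against 1.86 and 1.75 on the WT arrays. The groups did not overlap. The difference of -1.08 had pairs from -1.15 to -1.004, so the call stood at the edge of the rule. It was lost with quantile normalization and with either normexp setting, where the differences of the array means were -1.07, -1.06 and -1.02.

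Cdkn1c encodes p57, an imprinted gene expressed from the maternal allele that is known for its role in development and in quiescent stem cells. It was dim, with log2 signals of -2.88 and -2.91 on the Bach2KO arrays, against -3.95 and -3.99 on the WT arrays. The unscaled intensities were 129 and 119 units in Bach2KO and 77.1 and 89.2 units in WT. The scaled signals did not overlap, and the difference was 1.07, with pairs from 1.04 to 1.11. This call rested on the scaling. It was lost under quantile normalization (0.92), median centring (0.93), and the normexp background correction followed by the 75th percentile (0.72) or quantile normalization (0.52). It was also lost with the percentile taken over spots (1.04), an alternative chosen after seeing the data. Within arrays, Cdkn1c and Cdkn1a both moved up relative to Cdkn1b, by 4.44-fold and 3.79-fold.

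The INK4 inhibitor genes also differed. Cdkn2a was 2.63-fold higher in Bach2KO, and Cdkn2c, the gene of p18, did not differ beyond the spread between repeats.

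Cdkn2a encodes 2 unrelated proteins through different first exons, the Cdk inhibitor p16INK4a and ARF, which stabilises p53. The brighter of its 2 probes had log2 signals of -1.37 and -1.42 on the Bach2KO arrays, against -2.69 and -2.89 on the WT arrays. The difference was 1.40, with pairs from 1.27 to 1.52. The call was lost with normexp and the 75th percentile (1.09) and with normexp and quantile normalization (0.96). The second probe was near the detection limit, at -5.89 and -5.64 in Bach2KO, where it was well above background, and at -6.92 and -7.21 in WT, where it was not. Its pairs ran from 1.03 to 1.57, but the rule then also asks for a lower bound of 2-fold. That bound was 1.41-fold higher in Bach2KO, which is short of the rule. For this bound the WT value on each array was the probe's own signal or the dimmest detected signal, whichever was higher. Both probes are assigned to NM_009877, the ARF transcript, but the exons downstream of the first are shared and the sources used here do not place the probes within the gene, so the p16INK4a and ARF transcripts cannot be told apart.

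The starts of both transcripts are shown because the signal may come from either. They are RefSeq promoter windows of GRCm38.p6 on the minus strand, 5′ to 3′, with no capitals as none of the searched motifs was found. The first exon of ARF is known to lie upstream of that of p16INK4a, which gives the order.
Cdkn2a, upstream start, chr4:89294570-89294869: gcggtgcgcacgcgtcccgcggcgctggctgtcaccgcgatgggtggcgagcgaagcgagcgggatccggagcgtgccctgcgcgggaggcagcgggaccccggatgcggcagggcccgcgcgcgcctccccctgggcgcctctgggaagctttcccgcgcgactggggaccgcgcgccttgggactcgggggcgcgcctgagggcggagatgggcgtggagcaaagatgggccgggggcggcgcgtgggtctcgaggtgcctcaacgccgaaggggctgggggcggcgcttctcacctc
Cdkn2a, downstream start, chr4:89282143-89282442: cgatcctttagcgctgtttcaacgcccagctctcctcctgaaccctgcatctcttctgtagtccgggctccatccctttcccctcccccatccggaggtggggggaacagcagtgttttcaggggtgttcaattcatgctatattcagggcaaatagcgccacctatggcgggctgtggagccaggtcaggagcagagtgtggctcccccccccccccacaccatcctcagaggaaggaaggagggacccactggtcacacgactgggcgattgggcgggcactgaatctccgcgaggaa
The G and C content was 77.0% in the upstream window and 60.3% in the downstream one.

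Cdkn2c had log2 signals of -1.48 and -1.43 on the Bach2KO arrays, against -1.42 and -1.50 on the WT arrays. The groups overlapped, and the difference of 0.003 lay within the repeat spread of 0.05 in Bach2KO and 0.08 in WT. Relative to Cdkn2c in the same array, Cdkn2a was 2.63-fold higher in Bach2KO.

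Of the other Cdk inhibitor genes and related factors, 5 were measured, 0 were called higher and 1 lower. The one called was Cdkn2b, the gene of p15, which neighbours Cdkn2a on the chromosome. It had log2 signals of -3.29 and -3.26 on the Bach2KO arrays, against -1.39 and -1.33 on the WT arrays, and was 3.78-fold lower. The neighbours thus went opposite ways, and the ratio of Cdkn2a to Cdkn2b was 9.95-fold higher in Bach2KO (pairs from 3.14 to 3.49, log2). The median of the 5 was 0.47, and -0.28 with spike-in scaling.

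Scaling decided several of these values. With scaling on 9 probes for the E1A spike-in control, an RNA meant to be added in equal amounts to each sample, all differences were 0.76 lower than on the 75th percentile, the median of all genes was -0.66, and 16.4% of the calls over all genes were higher, against 61.1%. Ccnd1 was then 2.24 and still called higher, while Cdkn2a (0.64) and Cdkn1c (0.32) were not called. Ccnd2 (-2.17) and Cdkn1b (-1.83) were called lower, as were Cdk6 (-1.78) and Ccnd3 (-1.43), whereas Cdk4 (0.07) and Cdkn1a (0.09) were close to 0 and Cdkn2c was at -0.75. The order of the 10 differences is the same on either scale, since every gene moved alike.

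**Figure D3:**
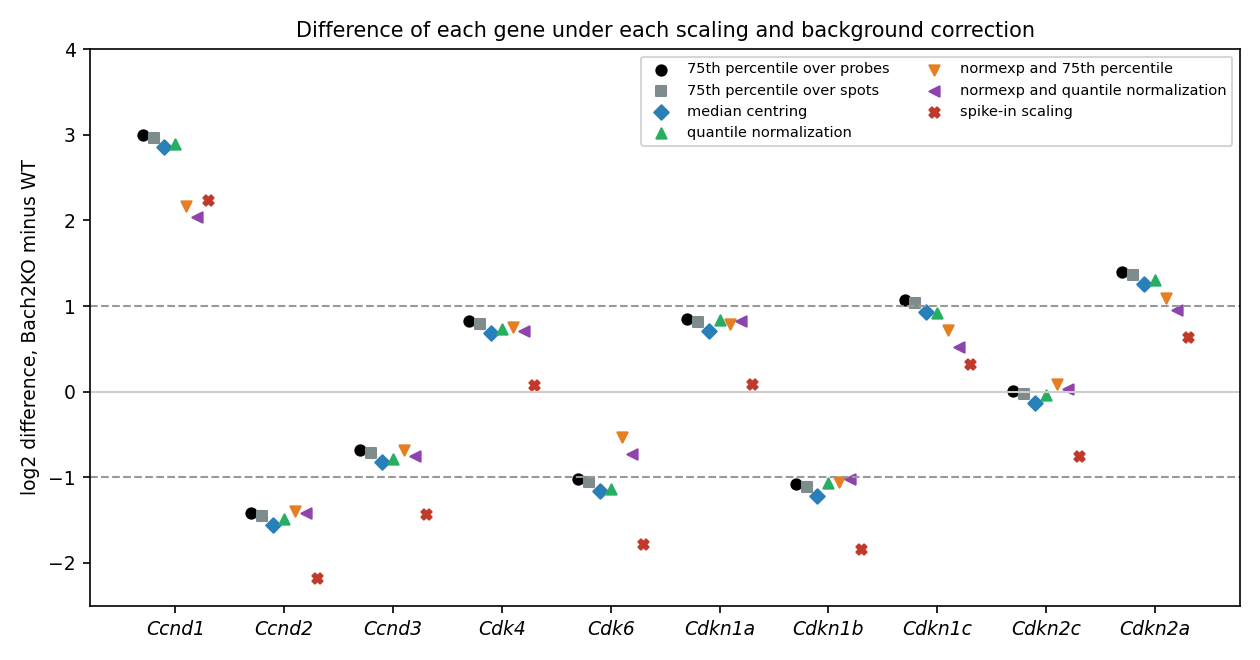
Log2 difference, Bach2KO minus WT (vertical axis), of the 10 genes (horizontal axis) under 7 ways of scaling or background correction, 1 symbol each; dashed lines mark 2-fold. Ccnd1 lies above the upper line (2.04 or more) and Ccnd2 below the lower line (-1.40 or less) under all 7, while Cdkn1c and Cdkn2a lie on both sides of the upper line and Cdk6 and Ccnd3 on both sides of the lower one.

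The genes downstream of the D cyclins were examined by lists. For this and the following lists, the background over all 15122 measured genes was 8.74% called higher and 5.55% lower. Of those genes, 6545 had a difference below 0. Of 27 E2F target and S phase genes measured, 1 was called higher and 1 lower, and 21 had a difference below 0. Their median was -0.32, against 0.10 over all genes. Tk1, the thymidine kinase of DNA synthesis, was 2.21-fold lower (1.04 ± 0.01 in Bach2KO and 2.19 ± 0.01 in WT), and Lig1, the DNA ligase that joins Okazaki fragments, 2.24-fold higher (4.07 ± 0.21 in Bach2KO and 2.91 ± 0.001 in WT), a call lost with median centring, quantile normalization, spike-in scaling, either normexp setting and the percentile taken over spots. Of 26 genes of G2 and mitosis, 0 were called higher and 4 lower. All 26 had differences below 0, from -1.61 to -0.06, with a median of -0.36. With normexp and the 75th percentile 23 were below 0 and 3 above, the median was -0.28 and 2 were called lower, as were 2 with normexp and quantile normalization. Cdc25b, a phosphatase that activates mitotic Cdk1, was 3.06-fold lower, the kinesin gene Kif23 2.75-fold, the spindle motor gene Kif11 2.33-fold and the checkpoint kinase gene Bub1b 2.30-fold. With spike-in scaling the E2F target list had a median of -1.08 and 12 genes called lower, and the mitosis list a median of -1.11 and 14 called lower.

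The later cyclins and their kinases held no called gene among 10 measured, with a median of -0.35, whereas with spike-in scaling 4 were called lower and the median was -1.10. Of these, Ccne1, for cyclin E1, was at 1.09 ± 0.02 in Bach2KO and 1.01 ± 0.01 in WT, and Ccnb2, for cyclin B2, at 1.57 ± 0.02 in Bach2KO and 2.35 ± 0.01 in WT. Of 13 retinoblastoma family and E2F-DP genes, 2 were called lower and 0 higher (median -0.20). They were Rbl1, which encodes the pocket protein p107 (2.16-fold lower), and E2f8, a repressor of the E2F family (2.35-fold lower). The list had 0 called lower with normexp and the 75th percentile, 1 with quantile normalization, with normexp and quantile normalization and with the mean of a gene's probes, and 5 with spike-in scaling. Of 15 genes for turnover of D cyclins and Cdk inhibitors, 1 was called higher and 0 lower (median 0.08, and -0.68 with spike-in scaling). It was Fbxo4, an F-box protein gene linked to cyclin D1 degradation, 2.20-fold higher, with signals of 1.12 ± 0.01 in Bach2KO and -0.01 ± 0.04 in WT. That call was lost with median centring, with normexp and the 75th percentile, and with spike-in scaling.

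Of 22 measured genes of p53 and its targets, 6 were called higher and 2 lower, with a median of 0.41. Gadd45a, a growth arrest gene also induced through other stress pathways, was 10.5-fold higher (0.57 ± 0.01 in Bach2KO and -2.82 ± 0.05 in WT), and the polo-like kinase gene Plk2 4.09-fold higher. The antiproliferative gene Btg2 was 4.69-fold lower and the desmosome-associated gene Perp 21.0-fold lower. The list had 4 higher and 2 lower with median centring, and 2 higher and 5 lower with a median of -0.34 with spike-in scaling.

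Of 22 measured upstream factors of G1 genes, 3 were called higher and 4 lower (median -0.19), and with spike-in scaling 3 higher and 10 lower (median -0.95). Both normexp settings gave 2 higher, and requiring a signal well above background on all 4 arrays gave 1. Maf, a basic leucine zipper transcription factor, was at least 7.44-fold higher in Bach2KO, as it was not well above background in WT. Smad3, the transducer of TGF-beta signals, was at least 5.14-fold higher on the same ground, and Id1, an inhibitor of basic helix-loop-helix factors, was 7.93-fold lower. Of 7 measured colony-stimulating factor and receptor genes 1 was called, higher. It was Csf1, the macrophage growth factor gene (163-fold), with signals of 2.55 ± 0.02 in Bach2KO and -4.80 ± 0.02 in WT.

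**Figure D4:**
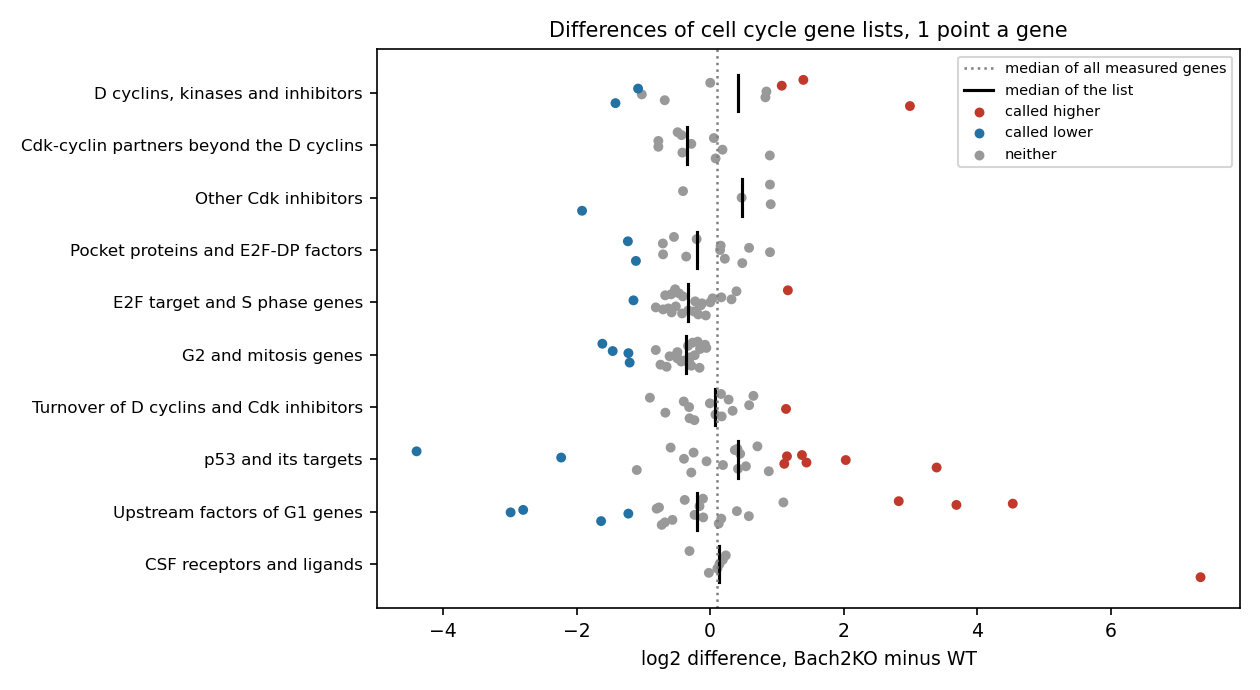
Log2 difference, Bach2KO minus WT (horizontal axis), of the 10 G1 genes and of 9 lists of cell cycle and upstream genes (vertical axis), 1 point a gene; black bars are list medians and the dotted line is the median of all measured genes, 0.10. On this scale, the 75th percentile without normexp, all 26 G2 and mitosis genes lie left of 0, as do 6545 of the 15122 measured genes. The 10 G1 genes spread from -1.42 to 2.99.

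The labelled cell type was set against its markers. All 19 alveolar macrophage markers measured were well above background in both genotypes, with 3 called higher and 8 lower. Their summed linear signals, in units of the array's 75th percentile, were 1616 to 1661 in Bach2KO and 1682 to 1860 in WT. Without the brightest gene, Chil3, the sum was 1211 to 1246 in Bach2KO and 1424 to 1544 in WT. Siglecf, which encodes the sialic acid receptor commonly used to identify these cells, was lower in Bach2KO (log2 difference -3.62). Also called lower were Fabp1 (-7.17), Cidec (-6.06), Krt79 (-4.04), Ear1 (-2.15), Krt19 (-1.96), Marco (-1.82) and Ear2 (-1.57). Other markers of the list went the other way, as Fabp4 (1.62), Fabp5 (1.59) and Spp1 (3.71) were called higher, and Itgax (0.62) and Chil3 (0.52) met neither condition. The markers named here and below were picked after their values were seen.

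Markers of other cell types moved as well, and their sums, taken over all listed genes on the array, can rest on 1 bright probe. Of 14 monocyte and interstitial macrophage markers 6 were higher and 3 lower, with sums of 37.7 to 38.1 in Bach2KO and 27.5 to 27.6 in WT. Of 10 neutrophil markers 5 were higher and 0 lower, with 60.4 to 60.8 in Bach2KO and 45.4 to 46.8 in WT, and S100a9 and Retnlg were not well above background in WT. Without its brightest gene, Csf3r, the neutrophil sum was 25.9 to 28.1 in Bach2KO and 4.31 to 4.57 in WT. Of 16 T and NK cell markers 7 were higher and 1, Cd2, lower, while 15 of the 16 differences were above 0. The sum was 36.0 to 36.8 in Bach2KO and 70.9 to 71.0 in WT, of which Cd2 alone made up 15.4 to 15.8 in Bach2KO and 57.7 to 58.3 in WT. Without Cd2 the direction turned, with 20.5 to 21.1 in Bach2KO and 12.8 to 13.2 in WT. Of the measured genes of that list, Cd3d, Cd3g, Il7r and Bcl11b were not well above background in WT. Of 9 B cell markers 2 were higher and 0 lower, with 4.51 to 4.52 in Bach2KO and 3.08 to 3.14 in WT. The 2 called, Cd79b and Sdc1, were not well above background in WT. Most of the B cell sum was Cd22, without which it was 1.09 to 1.24 in Bach2KO and 0.566 to 0.659 in WT. Of 5 endothelial markers 2 were higher and 0 lower, with 32.5 to 32.6 in Bach2KO and 15.1 to 16.2 in WT. Of 10 epithelial markers 2 were higher and 1 lower, with 129 to 130 in Bach2KO and 93.4 to 114 in WT, and Epcam was not well above background in Bach2KO. Nearly all of the epithelial sum was Lyz1, without which it was 5.38 to 5.53 in Bach2KO and 4.20 to 4.38 in WT. The part of other cells in the values of the D cyclin, kinase and inhibitor genes was not tested.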

How the data were processed

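Expression was measured on 1-colour (Cy3) Agilent mouse oligonucleotide arrays, 2 per genotype. Deposited spot values are linear intensity, background-subtracted and detrended within each array. Per the file headers, Feature Extraction 10.7.3.1 made them, but version 9.1 is listed in the submitters' processing notes. The deposited value table holds log2 values, each the log2 processed signal of its array minus a constant (SD of the difference between 3.2e-07 and 3.5e-07 over 39030 probes with 1 spot; column medians -3.58, -3.67, -3.53 and -3.45), which settled its scale, centring and direction. Log2 signals were averaged over the spots of a probe, without control and outlier spots (109 to 136 of 43020 non-control spots per array; 0 saturated), and the 75th percentile over probes was subtracted. That percentile was 947 and 896 units on the Bach2KO arrays and 1190 and 1418 units on the WT arrays, and 27126 to 27918 of 39429 probes were well above background per array.

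Probes entered if both arrays of either genotype read well above background. Symbols came through unversioned accessions from a RefSeq table of GRCm38.p6, which named 26055 probes and left 13374 unnamed. Each gene was represented by its brightest probe on average. The call was a rule of size without a test. Python 3.11.15, pandas 2.3.3 and, for the normexp correction of median spot signals (offset 50), limma 3.58.1 in R 4.3.3 were used. The calling rule was tested on simulated data in which every gene was set well above background, so its condition for dim signals was not tested. The genes, the lists and the rule that up to 4 called genes per list (or, with none called, the 2 brightest) are named were chosen with earlier results of these data known. The comparison of genotypes is limited by the 1 RNA sample per genotype, of which the arrays are technical repeats. One gene that the naming rule would include is not reported here.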

Additional observations from a re-analysis of the deposited data

How the results depend on the processing

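The 10 genes were recomputed under 19 alternatives. Of the 5 calls, that of Ccnd1 held under all 19, with differences from 2.04 to 3.09, and that of Ccnd2 under all but the 3-fold threshold. The count of the 10 called higher (3) dropped to Ccnd1 alone, 1 gene, at 3-fold, under spike-in scaling and in both normexp settings, was 2 under quantile normalization, median centring and the percentile over spots, chosen after seeing the data (Cdkn1c lost each time), and was 5 at 1.5-fold. The count called lower (2) was 1 with quantile normalization and with normexp and either scaling (Ccnd2 alone), 0 at 3-fold, and 4 with spike-in scaling and at 1.5-fold. Over all genes, 1322 higher and 840 lower became 628 and 3192 with spike-in scaling, 2372 and 1788 at 1.5-fold, 719 and 388 at 3-fold, and 845 higher with normexp and quantile normalization. None of the 5 called genes changed sign under these alternatives. With normexp and the 75th percentile Ccnd1 was at 2.17 and Cdk6 at -0.53. Leaving out each array in turn gave 3 higher and 2 to 3 lower, the third being Cdk6 without WT replicate 1. With the replicate number as a replicate block, read as same-numbered array pairs only, 3 were called higher and 2 lower (1357 and 868 over all genes), so the pairing changed no call of the 10; the numbers mark parts of 1 RNA sample and pair nothing across genotypes. The causes were not tested. Signals near background limit the dim Ccnd1, Cdk6, Cdkn1c and second Cdkn2a probes.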
